A study of Mus musculus with 29 samples.

Results

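Regulatory T (Treg) cells made in culture were compared with Th0 cells, to describe what the addition of TGF-beta did to gene expression. Treg cells were naive CD4 T cells from the spleens of C57BL/6 mice that had been grown in the presence of human TGF-beta (hTGFb, 10 ng/ml) together with IL-2 (15 ng/ml) over 5 days. Th0 cells came from the same kind of naive cells and had the same 5 days and the same IL-2 without TGF-beta. Each group had 3 libraries, and 3 libraries of uncultured naive CD4 T cells shared the fit. For these 9 libraries the labels state that no pharmacological drug was used, and they name no mutation and no sorting of the cells after culture. A second experiment of Treg cultures, with guides against Smad2, Smad3 or both (sgSmad2, sgSmad3 and sgSmad2/3) or with none (control), had 2 libraries each and was used to follow the same genes. Of the 54532 gene IDs in the table, 18056 were above 0 in any of the 6 Treg and Th0 libraries, and the 13003 that reached a CPM of 1 (counts scaled to the same total in each library) in at least 3 of these 6 were examined. The third-highest value of the genes nearest the limit was 1.06 CPM inside and 0.980 CPM outside, a single read in either case.

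TGF-beta signals through a pair of serine/threonine kinase receptors that phosphorylate Smad2 and Smad3, which join Smad4 and act on target genes in the nucleus. Some of the targets, such as Smad7 and Skil, feed back to restrain the pathway. In CD4 T cells that receive antigen signals, TGF-beta with IL-2 induces the transcription factor Foxp3 and the surface proteins of Treg cells, and it restrains effector programmes.

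The 6 libraries held 928709, 1551478 and 1020894 reads for Treg and 943873, 901206 and 816391 reads for Th0 cells. Levels are in CPM, changes are on the scale of log2(CPM + 1) with their standard error (SE), and a gene was called where its limma p, adjusted by Benjamini and Hochberg over all 13003 genes, was under 0.05. Since the labels do not tell whether separate animals or cultures stand behind the replicates, p reflects library-to-library spread, part or all of which may be technical. Of the markers of other blood cells, 4 of 14 B cell markers, 10 of 16 myeloid markers and 7 of 12 red cell and platelet markers were at 0 in all 6 libraries. The 12 CD4 T cell markers summed to 4375 to 4819 CPM in Treg and 4829 to 5189 CPM in Th0 libraries.

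TGF-beta moved 828 genes, 6.37% of those tested. Of these, 449 were higher in Treg than in Th0 cells (3.45%) and 379 were lower (2.92%). A change of 2-fold or more was seen for 240 of the higher genes (1.85% of those tested) and 184 of the lower ones (1.42%), and of 4-fold or more for 118 of the higher genes (0.907%) and 60 of the lower ones (0.461%). The median change of all genes was -0.01, and 48.5% lay above 0. Called genes that were higher took 8.36% of the reads in Treg against 5.15% in Th0 libraries, and those that were lower took 4.82% in Treg against 7.60% in Th0 libraries. Groups that did not overlap were more frequent than calls: the 3 Treg values lay above the 3 Th0 values in 1384 genes (10.6%) and below them in 1589 (12.2%). The share called grew with the level, being 17.6% of genes at a mean of 500 CPM or more and 2.43% of genes under 5 CPM. The median SE was 0.09 in that upper class and 0.56 in the lower one. Of 10738 protein-coding genes 7.15% were called, and of 487 processed pseudogenes 0.616%. Without Treg replicate 2, the deepest library, 292 genes were higher and 274 lower. Without limma's intensity trend, which lets the expected spread vary with the level, 279 genes were higher and 227 lower.

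**Figure D1:**
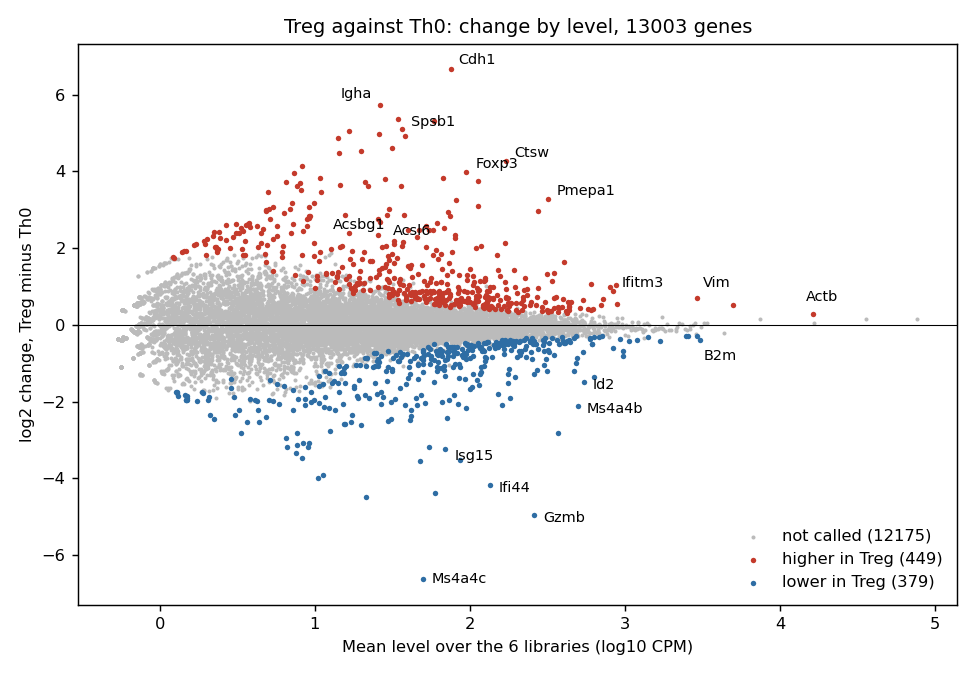
Change of each of the 13003 genes between Treg and Th0 cells (y axis, log2 of CPM + 1, Treg minus Th0) against its mean level over the 6 libraries (x axis, log10 CPM). Red points are the 449 genes higher in Treg and blue points the 379 lower ones, and gray points are not called.

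Among the largest rises in Treg were adhesion molecules, segments of antigen receptor loci and regulators of the TGF-beta pathway itself. Cdh1, which encodes the adhesion molecule E-cadherin (chromosome 8, 106603350 to 106670247 on GRCm38.p6), had 173, 157 and 118 CPM in Treg and 0, 2.22 and 0 CPM in Th0 libraries. All 3 Treg libraries were far above every Th0 library, and the ratio of the summed reads was 200 (95% interval for counting error 55.1 to 1655; log2 change 6.66, SE 0.49, adjusted p = 1.23e-09). Itgae, the alpha chain of the integrin CD103 that binds E-cadherin, had 28, 31.6 and 25.5 CPM in Treg and 0, 0 and 1.23 CPM in Th0 libraries (ratio of summed reads 76.8, 95% interval for counting error 13.5 to 3062; adjusted p = 4.54e-07). Its groups did not overlap, and the Th0 group held a single read. The beta chain that pairs with it, Itgb7, was abundant in both groups, with 297, 333 and 348 CPM in Treg and 207, 272 and 285 CPM in Th0 libraries, and rose by 0.37. That call of Itgb7 was lost without Th0 replicate 1 or 2 or Treg replicate 2 or 3 (adjusted p up to 0.288), and the gene was added after its values were seen.

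Camk2n1, an inhibitor of the calcium-dependent kinase CaMKII, had 75.4, 136 and 134 CPM in Treg and 2.12, 2.22 and 1.23 CPM in Th0 libraries (log2 change 5.32, SE 0.41, adjusted p = 2.83e-09). Treg replicate 1 was the low one of its group and still stood above every Th0 library. The chemokine receptor Cx3cr1 had 71.1, 79.9 and 72.5 CPM in Treg and 1.06, 1.11 and 2.45 CPM in Th0 libraries (log2 change 4.93, SE 0.46, adjusted p = 4.64e-08). Ctsw, a cysteine protease of T and NK cells, had 344, 348 and 278 CPM in Treg and 15.9, 17.8 and 13.5 CPM in Th0 libraries, a 19.4-fold difference (SE 0.19 on the log2 scale, adjusted p = 2.26e-13). Of the genes with no read in Th0 libraries, Nlrp6, a sensor of the NOD-like family, had 21.5, 36.7 and 41.1 CPM in Treg and was at least 9.02-fold higher. Cd38, an enzyme that consumes NAD, had 16.1, 16.8 and 16.6 CPM in Treg libraries and was at least 4.50-fold higher. Both bounds take 3 reads per library as the floor for a count of 0, set by the shallowest Th0 library, and cover counting error only. Gm47050, a gene model without a described role, had 44.1, 51.6 and 56.8 CPM in Treg and 0, 3.33 and 0 CPM in Th0 libraries (ratio of summed reads 45.4, 95% interval 15.3 to 222).

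Segments of antigen receptor loci were also among the leading rises. Igha, the constant region of the IgA heavy chain (chromosome 12, 113256204 to 113260236), had 65.7, 51.6 and 41.1 CPM in Treg libraries and no read in any Th0 library, at least a 14.4-fold difference. TGF-beta is known to induce germline transcripts of this region in B cells. The B cell markers Iglc1, Fcer2a and Blk were at 0 in all 6 libraries. The summed B cell markers were 104 to 113 CPM in Treg and 105 to 117 CPM in Th0 libraries. Nearly all of that sum was Ighm, the IgM constant region, with 109, 97.97 and 109 CPM in Treg and 96.4, 103 and 109 CPM in Th0 libraries. Igkc, the kappa light chain constant region, had no read in Treg libraries and 3.18, 3.33 and 1.23 CPM in Th0 libraries, at or below the floor of 3 reads per library, so no fold is given.

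At the T cell receptor gamma locus, the variable segment Trgv2 had 59.2, 74.1 and 69.5 CPM in Treg and 1.06, 0 and 1.23 CPM in Th0 libraries (ratio of summed reads 91.6, 95% interval for counting error 25.1 to 761). The constant segment Tcrg-C2 had 128, 133 and 118 CPM in Treg and 7.42, 5.55 and 12.2 CPM in Th0 libraries (log2 change 3.82, SE 0.40, adjusted p = 2.98e-07). Tcrg-C4 had 40.9, 79.3 and 64.7 CPM in Treg and 1.06, 2.22 and 1.23 CPM in Th0 libraries (log2 change 4.62, SE 0.46, adjusted p = 1.1e-07). Neither of these constant segments overlapped between groups, whereas Tcrg-C1 did, with 19.4, 13.5 and 15.7 CPM in Treg and 10.6, 22.2 and 15.9 CPM in Th0 libraries. Tcrg-C1 and Tcrg-C2 are near-identical copies, so reads can be split between them. Tcrg-C2 and Tcrg-C4 belong to the list of CD8, NK and gamma-delta cell markers, of which 3 of 9 tested members rose and 0 fell. Its 13 genes summed to 237 to 275 CPM in Treg and 56.4 to 61.5 CPM in Th0 libraries. Tcrg-C2 and Tcrg-C4 made up most of that sum in Treg and a much smaller part of it in Th0 libraries. Trdc, the delta chain that gamma-delta T cells need, had 8.61, 6.45 and 8.82 CPM in Treg and 4.24, 5.55 and 3.67 CPM in Th0 libraries. Its groups did not overlap but did not pass the test (adjusted p = 0.366). Sox13 and Klra7 were at 0 in all 6, and Cd8a had at most 4.51 CPM and Cd244a at most 7.54 CPM. Klrk1 overlapped between groups, with 35.5, 21.9 and 7.84 CPM in Treg and 23.3, 14.4 and 13.5 CPM in Th0 libraries. Cd8b1 had 3.23, 3.87 and 4.9 CPM in Treg and 7.42, 7.77 and 4.9 CPM in Th0 libraries. Klrd1, a lectin receptor of NK and CD8 T cells, was the other riser, with 19.4, 10.3 and 14.7 CPM in Treg and 2.12, 1.11 and 2.45 CPM in Th0 libraries (log2 change 2.44, SE 0.44, adjusted p = 0.000579). In bulk libraries more cells of a type and more RNA per cell cannot be told apart, and the part of such cells in these results was not tested.

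Within the TGF-beta pathway, feedback regulators rose while ligand, receptors and most Smads did not pass the test. Of 23 tested Smads and feedback regulators 6 were higher and 1 lower, with a median of 0.23 against -0.01 over all genes. Pmepa1, a membrane protein that sequesters receptor-activated Smads, led them with 515, 629.7 and 585 CPM in Treg and 47.7, 45.5 and 90.6 CPM in Th0 libraries (log2 change 3.28, SE 0.19, adjusted p = 1.7e-11). The corepressor Skil had 195, 199.8 and 208 CPM in Treg and 28.6, 24.4 and 15.9 CPM in Th0 libraries (log2 change 3.11, SE 0.17, adjusted p = 1.09e-11). Both showed a tight Treg group, none of whose values came near the Th0 group. The inhibitory Smad7 had 87.2, 87.01 and 95.99 CPM in Treg and 14.8, 17.8 and 11.02 CPM in Th0 libraries (log2 change 2.57, SE 0.17, adjusted p = 2.09e-10). The corepressor Ski had 212, 230.1 and 224 CPM in Treg and 67.8, 90.99 and 86.97 CPM in Th0 libraries (log2 change 1.44, SE 0.12, adjusted p = 7.96e-09). Ldlrad4, which hinders the activation of Smad2 and Smad3, had 32.3, 26.4 and 26.4 CPM in Treg and no read in Th0 libraries, at least a 7.73-fold rise. The ubiquitin ligase Smurf2 rose by 1.13 (SE 0.23), a call that ended without the trend (adjusted p = 0.095). The naive libraries, without culture, held more Smad7 (214 CPM) and Ski (249 CPM) than Treg cells, so that 3 of the 6 risers were lower in both cultures than in naive cells.

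Of the signal transducers, Smad3 was called lower, and Smad2 and Smad4 did not pass the test. Smad3 had 26.9, 28.4 and 24.5 CPM in Treg and 41.3, 53.3 and 37.97 CPM in Th0 libraries (log2 change -0.70, SE 0.20, adjusted p = 0.0333), a call that was lost without any 1 of Th0 replicates 1 and 2 and the 3 Treg replicates (adjusted p up to 0.188). Smad2 had a change of -0.24 (adjusted p = 0.672) and Smad4 one of 0.03 (adjusted p = 0.962). The receptor gene Tgfbr1 had 24.8, 29 and 24.5 CPM in Treg and 18.01, 15.5 and 11.02 CPM in Th0 libraries, groups that did not overlap but did not pass the test (adjusted p = 0.112). Tgfbr2 overlapped between groups (adjusted p = 0.3). The ligand Tgfb1 differed by -0.21 (adjusted p = 0.673). Among 18 ligands, receptors and activators 2 rose and 0 fell, and both rising genes handle the ligand. Furin, the protease that cleaves the TGF-beta precursor, had 63.5, 102 and 87.2 CPM in Treg and 22.2, 17.8 and 18.4 CPM in Th0 libraries (log2 change 2.04, SE 0.21, adjusted p = 1.95e-07). Lrrc32 (GARP), which holds latent TGF-beta on the cell surface, had 333, 331 and 280.1 CPM in Treg and 119, 169.8 and 119 CPM in Th0 libraries (log2 change 1.22, SE 0.20, adjusted p = 0.000136).

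Of 15 tested genes known as TGF-beta targets in many cell types 6 rose and 1 fell (median 0.52). With DESeq2, without the trend or without Treg replicate 2, 3 rose. Spsb1, an adaptor of ubiquitin ligases, had 68.9, 87.7 and 56.8 CPM in Treg and 1.06, 3.33 and 0 CPM in Th0 libraries (log2 change 5.10, SE 0.43, adjusted p = 1.04e-08) and was the member with the largest rise. Junb had a log2 change of 0.63 with no overlap between groups, a call that ended with DESeq2 (adjusted p = 0.0591) and without the trend (0.164). Id2, an inhibitor of basic helix-loop-helix factors, was the member that fell, with 339, 275 and 235 CPM in Treg and 933, 833 and 621 CPM in Th0 libraries (log2 change -1.49, SE 0.13, adjusted p = 1.38e-08). Further risers lost their call without 1 library. The cell cycle inhibitor Cdkn1a (0.60) lost it without Th0 replicate 2 or 3 or Treg replicate 1 or 2 (adjusted p up to 0.255). The GTPase Rhob (1.02) lost it without Treg replicate 2 (0.0688), and the repressor Bhlhe40 (0.69) without Th0 replicate 2 or 3 or Treg replicate 2 or 3 (up to 0.0848).

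**Figure D2:**
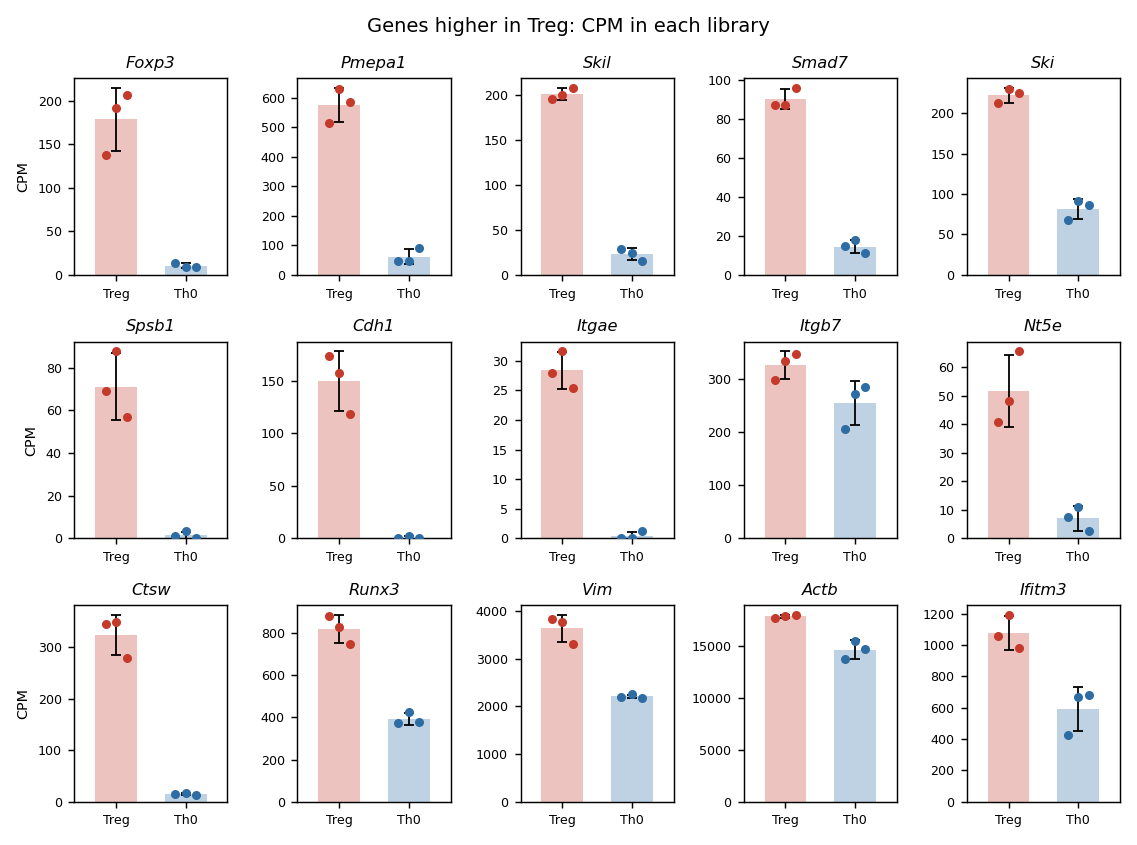
Levels of 15 genes higher in Treg cells, in CPM (y axis, each panel with its own scale from 0). Points are the 3 libraries of Treg (red, left) and Th0 (blue, right), bars are means and error bars are SD. In every panel the 3 Treg points lie above the 3 Th0 points.

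Of the genes known for Treg cells, Foxp3 and a set of surface proteins were higher, and the IL-2 receptor alpha chain and CTLA-4 did not pass the test. Foxp3, the transcription factor that defines Treg cells (chromosome X, 7579676 to 7595243), had 138, 191 and 207 CPM in Treg and 13.8, 8.88 and 8.57 CPM in Th0 libraries (log2 change 3.98, SE 0.19, adjusted p = 9.65e-13). Treg replicate 1 was the lowest of its group, and all 3 stood far above the Th0 values. The naive libraries held 82.8, 91.7 and 88.8 CPM of Foxp3, below Treg and above Th0 libraries. Il2ra, the IL-2 receptor alpha chain, had 1285, 1361 and 1351 CPM in Treg and 1260, 1320 and 1360 CPM in Th0 libraries and overlapped between groups (log2 change 0.02, SE 0.09, adjusted p = 0.953). The checkpoint receptor Ctla4 had 12.9, 18.1 and 10.8 CPM in Treg and 12.7, 3.33 and 7.35 CPM in Th0 libraries (adjusted p = 0.271). Of 19 tested suppressive mediators and surface markers of Treg cells 8 rose and 0 fell (median 0.64). Without Treg replicate 2 or 3, without the trend or at a pseudocount of 0.1 CPM the count was 5. Nt5e (CD73), which makes adenosine, had 40.9, 48.3 and 65.6 CPM in Treg and 7.42, 11.1 and 2.45 CPM in Th0 libraries (log2 change 2.87, SE 0.41, adjusted p = 3.18e-05). Nrp1, a coreceptor for semaphorins, rose by 1.55 and Fgl2, a secreted suppressive protein, by 1.48. Entpd1 (CD39), which feeds Nt5e by degrading ATP, rose by 2.07 but lost its call without Th0 replicate 3 or any 1 Treg replicate (adjusted p up to 0.17). The phosphatase gene Dusp4 (1.77) lost it without Th0 replicate 1 or 2 or any 1 Treg replicate (up to 0.206).

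Transcription factors of Treg and helper cells went both ways, with 11 of 41 higher and 4 lower (median 0.19). Without the trend 6 were higher. Runx3, a factor of CD8 and Th1 cells, was at a high level in both groups, with 879.7, 828 and 745 CPM in Treg and 372, 425 and 377 CPM in Th0 libraries (log2 change 1.06, SE 0.10, adjusted p = 2.93e-08). Ikzf4 (Eos), a partner of Foxp3, had 449, 528 and 412 CPM in Treg and 189.6, 219 and 220.5 CPM in Th0 libraries (log2 change 1.14, SE 0.12, adjusted p = 3.17e-07). Irf8 rose by 1.43, Ikzf3 (Aiolos) by 1.42 and Maf by 1.40, all without overlap. Satb1, a chromatin organiser of thymocytes and naive T cells, had 364, 351 and 355 CPM in Treg and 909, 866 and 948 CPM in Th0 libraries (log2 change -1.34, SE 0.08, adjusted p = 1.49e-11). Tcf7, which maintains naive and memory cells, had 31.2, 39.96 and 44.1 CPM in Treg and 57.2, 57.7 and 68.6 CPM in Th0 libraries (log2 change -0.67, SE 0.14, adjusted p = 0.00382). Eomes, the T-box factor, was called higher (1.03) although its groups overlapped, with 236, 119 and 74.4 CPM in Treg and 92.2, 64.4 and 40.4 CPM in Th0 libraries, and the call was lost without Th0 replicate 2 or 3 or Treg replicate 1 or 2 (adjusted p up to 0.365). Hic1, a repressor, had 6.46, 9.02 and 7.84 CPM in Treg and 2.12, 0 and 0 CPM in Th0 libraries (ratio of summed reads 10.6, 95% interval 2.68 to 92.2) and lost its call without Th0 replicate 2 or 3 (up to 0.0504). Ikzf4 and Tcf7 were added after their values were seen.

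Adhesion molecules split between groups, with 5 of 29 higher and 10 lower (median -0.02). Without the trend 2 were higher and 5 lower, and 6 were lower at a pseudocount of 0.1 CPM or without Th0 replicate 1. Besides Cdh1 and Itgae, the laminin receptor chain Itga6 rose by 0.50. On the side of the fallers stood the beta-3 integrin Itgb3, with 19.4, 7.74 and 10.8 CPM in Treg and 63.6, 73.2 and 73.5 CPM in Th0 libraries (log2 change -2.47, SE 0.25, adjusted p = 1.34e-07). Itga7, a laminin receptor chain, had 14, 17.4 and 10.8 CPM in Treg and 57.2, 72.1 and 57.6 CPM in Th0 libraries (log2 change -2.09, SE 0.28, adjusted p = 1.55e-05). Both kept their groups apart. Itgb5 and Itga2 had log2 changes of -1.95 and -1.97, the call of Itga2 being lost without Th0 replicate 1 or 3 or Treg replicate 1 (adjusted p up to 0.161). The call of Itgb5 ended with DESeq2 (adjusted p = 0.179) and at a pseudocount of 0.1 CPM (0.15). Itga6 was added after its values were seen.

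Receptors for chemokines and other small ligands mostly rose where they passed. Of 10 chemokine receptors 3 were higher and 0 lower, Cx3cr1 among them. Cxcr6, which guides T cells in tissues, had 22.6, 18.1 and 10.8 CPM in Treg and 1.06, 2.22 and 1.23 CPM in Th0 libraries (log2 change 2.83, SE 0.45, adjusted p = 0.000142). The lymph node homing receptor Ccr7 (0.35) lost its call without Th0 replicate 1 or any 1 Treg replicate (adjusted p up to 0.21). Of 32 receptors for lipid mediators, purines and other small ligands 4 rose and 2 fell. The lysophosphatidic acid receptor Lpar6 had 50.6, 65.7 and 73.5 CPM in Treg and 21.2, 19.97 and 20.8 CPM in Th0 libraries (log2 change 1.55, SE 0.19, adjusted p = 3.81e-06), and the sphingosine-1-phosphate receptor S1pr1 rose by 0.73, a call that ended without the trend (adjusted p = 0.084). Gpr174, a receptor for lysophosphatidylserine, was lower, with a log2 change of -0.85, a call that ended with DESeq2 (adjusted p = 0.0647). Among 24 cytokine receptors Ifngr2, a chain of the interferon-gamma receptor, had 41.99, 43.2 and 46.04 CPM in Treg and 11.7, 9.99 and 8.57 CPM in Th0 libraries (log2 change 2.02, SE 0.28, adjusted p = 1.91e-05). Il6ra and Il18r1 rose by 0.89 and 1.03, the call of Il6ra ending without the trend (adjusted p = 0.0878). Il12rb2, a chain of the IL-12 receptor, had 10.8, 10.3 and 2.94 CPM in Treg and 37.1, 33.3 and 18.4 CPM in Th0 libraries (-1.86) and lost its call without Th0 replicate 1 or 2 or Treg replicate 3 (adjusted p up to 0.125). The IL-2 receptor beta chain Il2rb (-0.36) lost it without Th0 replicate 1 or 2 or any 1 Treg replicate (up to 0.176).

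Of 35 genes of the TNF superfamily 6 rose and 6 fell (median -0.09). With DESeq2, or without Th0 replicate 1 or any 1 Treg replicate, 3 fell. Cd40, the receptor by which B cells and myeloid cells receive T cell help, had 29.1, 36.7 and 50.9 CPM in Treg and 0, 1.11 and 1.23 CPM in Th0 libraries (ratio of summed reads 51.7, 95% interval 14.04 to 431; adjusted p = 2.86e-06). Its ligand Cd40lg had 6.46, 11.6 and 8.82 CPM in Treg and 33.9, 36.6 and 36.8 CPM in Th0 libraries (log2 change -1.92, SE 0.23, adjusted p = 2.32e-06). The receptor and the ligand thus moved in opposite directions, neither with overlap. Tnfsf8 (CD30 ligand) had 32.3, 34.2 and 35.3 CPM in Treg and 153, 132 and 181 CPM in Th0 libraries (log2 change -2.15, SE 0.15, adjusted p = 7.08e-10). Tnfsf10 (TRAIL), a death ligand, rose by 1.94. Tnfrsf11a (RANK) had 19.4, 12.9 and 7.84 CPM in Treg and 0, 0 and 2.45 CPM in Th0 libraries (ratio 17.5, 95% interval 4.57 to 149; adjusted p = 0.000495).

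Genes of cytotoxic cells gave one of the largest falls, and the called members went both ways. Gzmb, granzyme B (chromosome 14, 56258836 to 56262334), had 22.6, 16.8 and 8.82 CPM in Treg and 611, 434 and 453 CPM in Th0 libraries (log2 change -4.95, SE 0.43, adjusted p = 1.72e-08). Its highest Treg value stayed far under the lowest Th0 value. Gzmc fell too (log2 change -2.07), a call lost without Th0 replicate 2 or Treg replicate 1 or 3 (adjusted p up to 0.133). Ctsc, the protease that activates granzymes, rose, with 149.7, 135 and 155 CPM in Treg and 66.8, 44.4 and 73.5 CPM in Th0 libraries (log2 change 1.27, SE 0.18, adjusted p = 2.2e-05). With Ctsw, 4 of the 22 tested members were higher and 2 lower, while the median was -0.20 against -0.01 over all genes. At an unadjusted p under 0.05, which 16.8% of all genes reached, 4 members were higher and 9 lower. edgeR called 4 higher and 5 lower, and DESeq2 3 higher and 1 lower. Among the 4 risers was Eomes, whose groups overlapped as given above. Tgm2, a transglutaminase that crosslinks proteins, had 14, 2.58 and 1.96 CPM in Treg and 138, 102 and 96.8 CPM in Th0 libraries (log2 change -4.37, SE 0.51, adjusted p = 1.48e-06). Nrn1, a small surface protein also made by neurons, had 8.61, 5.80 and 5.88 CPM in Treg and 92.2, 88.8 and 85.7 CPM in Th0 libraries (log2 change -3.55, SE 0.32, adjusted p = 2.22e-08). Plac8 had 28, 11.6 and 5.88 CPM in Treg and 185, 122 and 168 CPM in Th0 libraries (log2 change -3.53, SE 0.37, adjusted p = 3.2e-07). Ms4a4c, a tetraspan membrane protein (chromosome 19, 11404717 to 11427246), had no read in any Treg library and 119.7, 78.8 and 99.2 CPM in Th0 libraries, at least a 30.7-fold fall. Its neighbour Ms4a4b had 227, 162 and 172 CPM in Treg and 810.5, 779 and 828 CPM in Th0 libraries (log2 change -2.11, SE 0.10, adjusted p = 9.65e-13). Ms4a6b had a log2 change of -0.98, and 3 of 6 tested Ms4a genes fell and 0 rose. These genes are close paralogs whose reads can be split between copies.

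Of the gene lists examined, interferon-stimulated genes had the largest share of falls. Interferons activate them through factors, IRF9 among them, that bind the interferon-stimulated response element (ISRE), and their products hinder viruses. Of 50 tested members 38 were lower and 1 higher in Treg, with a median of -1.19, against 2.92% lower and a median of -0.01 over all genes. Summed over the 38, the level was 2800 to 2884 CPM in Treg and 6065 to 6505 CPM in Th0 libraries, and 3993 to 4328 CPM in naive libraries. The promoters of Isg15 and Ifit1, members with 3 overlapping or neighbouring matches, show the letters searched for the core of the ISRE (GAAANNGAA on either strand, in capitals, N being any base; 250 bases before to 50 after the start, from RefSeq, GRCm38.p6). Isg15 lies at chr4:156200769-156201068 on the minus strand and Ifit1 at chr19:34640639-34640938 on the plus strand, both printed in the direction of transcription.
Isg15: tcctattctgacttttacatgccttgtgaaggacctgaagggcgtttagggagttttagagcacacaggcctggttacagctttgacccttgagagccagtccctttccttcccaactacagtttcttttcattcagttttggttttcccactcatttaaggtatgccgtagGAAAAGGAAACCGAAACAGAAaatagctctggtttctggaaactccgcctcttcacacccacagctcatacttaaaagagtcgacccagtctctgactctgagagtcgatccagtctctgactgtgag
Ifit1: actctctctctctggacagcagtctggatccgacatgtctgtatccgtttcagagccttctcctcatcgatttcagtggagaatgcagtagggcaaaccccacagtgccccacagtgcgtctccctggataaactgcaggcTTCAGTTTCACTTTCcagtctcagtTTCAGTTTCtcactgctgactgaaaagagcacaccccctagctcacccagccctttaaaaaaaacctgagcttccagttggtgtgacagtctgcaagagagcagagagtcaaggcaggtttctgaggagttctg
Of the 38 members that fell, 30 had a promoter there and 16 of these (53.3%) held the letters, against 51.4% of the 37 tested members with a promoter, 8.59% of the 8881 genes tested that had one and 9.76% of all 27025 genes that have one. A match is a description of the letters and shows no binding.

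Isg15, a ubiquitin-like modifier, had 14, 15.5 and 8.82 CPM in Treg and 130.3, 129 and 119 CPM in Th0 libraries (log2 change -3.24, SE 0.32, adjusted p = 9.59e-08). Ifi44 had 19.4, 14.8 and 7.84 CPM in Treg and 259.6, 229 and 276 CPM in Th0 libraries (log2 change -4.17, SE 0.41, adjusted p = 9.41e-08). In both the Treg libraries lay far below the lowest Th0 library, and the naive means were 11.3 and 10.7 CPM. Oas2, an enzyme that senses double-stranded RNA, had 1.08, 0.644 and 0 CPM in Treg and 21.2, 16.6 and 28.2 CPM in Th0 libraries, a ratio of summed reads of Th0 over Treg of 38.2 (95% interval for counting error 10.1 to 322). Oasl2 had 0, 1.29 and 0 CPM in Treg and 14.8, 21.1 and 25.7 CPM in Th0 libraries (ratio 35.5, interval 9.37 to 301). Ifit1 had 0, 0.644 and 0.98 CPM in Treg and 11.7, 13.3 and 23.3 CPM in Th0 libraries (ratio 27.6, interval 7.19 to 236). Each of the 3 was thus nearly unread in Treg. Mx1 had 3.23, 0.644 and 0 CPM in Treg and 18.01, 19.97 and 12.2 CPM in Th0 libraries (log2 change -3.19, SE 0.60, adjusted p = 0.00088, and 0.0838 at a pseudocount of 0.1 CPM). Irf7, which amplifies the response, had 16.1, 15.5 and 18.6 CPM in Treg and 74.2, 73.2 and 75.9 CPM in Th0 libraries (log2 change -2.09, SE 0.24, adjusted p = 1.04e-06). Trim30a had 151, 178 and 171 CPM in Treg and 374, 366 and 394 CPM in Th0 libraries (log2 change -1.18, SE 0.10, adjusted p = 1.38e-08). Ifi27 was the 1 member that rose (0.62), a call lost without Th0 replicate 2 or 3 or Treg replicate 1 (adjusted p up to 0.0935). Irf7 and Ifi27 were named after their values were seen.

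Related families moved with them. Of 16 interferon-inducible GTPases 9 fell and 0 rose (median -0.79). Without Treg replicate 2 the count was 5. Gbp11, a guanylate-binding protein, had 0, 1.29 and 1.96 CPM in Treg and 52.97, 35.5 and 36.8 CPM in Th0 libraries (log2 change -4.47, SE 0.50, adjusted p = 6.87e-07). Gbp4 had 68.9, 74.1 and 43.1 CPM in Treg and 265, 254 and 262 CPM in Th0 libraries (log2 change -2.09, SE 0.16, adjusted p = 2.06e-09). Of the 10 with a promoter, fallers or not, 9 held the ISRE letters, and of the 4 fallers with a promoter 3 did. The letters were in 3 of 6 Schlafen promoters (2 of 5 among fallers). In MHC class I and antigen processing they were in 5 of 20 promoters (2 of 3 among fallers). Of 7 Schlafen genes, which restrain T cell growth and viruses, 5 fell and 0 rose. Slfn1 had 95.8, 67.03 and 65.6 CPM in Treg and 283, 267 and 301 CPM in Th0 libraries (log2 change -1.91, SE 0.13, adjusted p = 6.7e-10). Slfn2 had 154, 159.8 and 148 CPM in Treg and 268, 247 and 285 CPM in Th0 libraries (log2 change -0.79, SE 0.10, adjusted p = 6.47e-06). Without Treg replicate 1 the Schlafen count was 3. Slfn3 and Slfn5 lost their calls, Slfn3 without Treg replicate 1 (adjusted p = 0.0503) and Slfn5 without Th0 replicate 1 or 3 or Treg replicate 1 (up to 0.178). MHC class I and antigen processing had 4 of 25 lower and 0 higher. Of the 4, H2-T24 alone kept its call without each library in turn: 1 remained lower without Treg replicate 3, and 1 without the trend. The nonclassical H2-T24 had 8.61, 9.67 and 10.8 CPM in Treg and 42.4, 49.9 and 39.2 CPM in Th0 libraries (log2 change -2.07, SE 0.29, adjusted p = 2.86e-05). B2m, the invariant light chain, had a log2 change of -0.39 at levels of 3137, 2710 and 2058 CPM in Treg and 3532, 3157 and 3518 CPM in Th0 libraries, a call lost without Th0 replicate 1 or 3 or Treg replicate 2 or 3 (adjusted p up to 0.216). H2-Q7 lost its call without Th0 replicate 1 or 2 or Treg replicate 3 (up to 0.123), and H2-T22 without Treg replicate 3 (0.0806).

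A further interferon-responsive family went the other way. Ifitm1, a membrane protein that hinders the entry of viruses, had 165, 245 and 222 CPM in Treg and 16.9, 11.1 and 15.9 CPM in Th0 libraries (log2 change 3.76, SE 0.29, adjusted p = 2.83e-09). Its paralog Ifitm2 had 204, 260.4 and 232 CPM in Treg and 41.3, 79.9 and 79.6 CPM in Th0 libraries (log2 change 1.83). Ifitm3 had 1061, 1194 and 982 CPM in Treg and 429, 668 and 682 CPM in Th0 libraries (log2 change 0.89). Without the intensity trend the calls of Ifitm2 (adjusted p = 0.0645) and Ifitm3 (0.0627) ended, and that of Ifitm2 also ended at a pseudocount of 0.1 CPM (0.294). All 3 were nearly absent from naive cells (2.03, 1.20 and 6.52 CPM). In the same list 3 Ly6 genes fell. Ly6c2, a surface protein of activated and memory T cells, had 148, 97.97 and 48.98 CPM in Treg and 676, 640.3 and 592 CPM in Th0 libraries (log2 change -2.82, SE 0.24, adjusted p = 1.36e-08). Ly6a (Sca-1) had 178, 80.6 and 44.1 CPM in Treg and 317, 244 and 192 CPM in Th0 libraries, a call lost without Th0 replicate 1 or 2 or Treg replicate 2 or 3 (adjusted p up to 0.136). Ly6c1 had a log2 change of -1.93 and lost its call without Th0 replicate 1 or Treg replicate 3 (up to 0.0879). Of 9 members 5 rose, with Ly6g5b (ratio of summed reads 19, interval 6.26 to 94.2) and Thy1 (0.69, named after its values were seen) as the others, and 3 fell. Without the intensity trend 2 members rose, and at a pseudocount of 0.1 CPM 3 did, with Ly6g5b among the calls that ended. The Ly6 genes and the Ifitm genes are close paralogs, so reads can be split within each family.

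**Figure D3:**
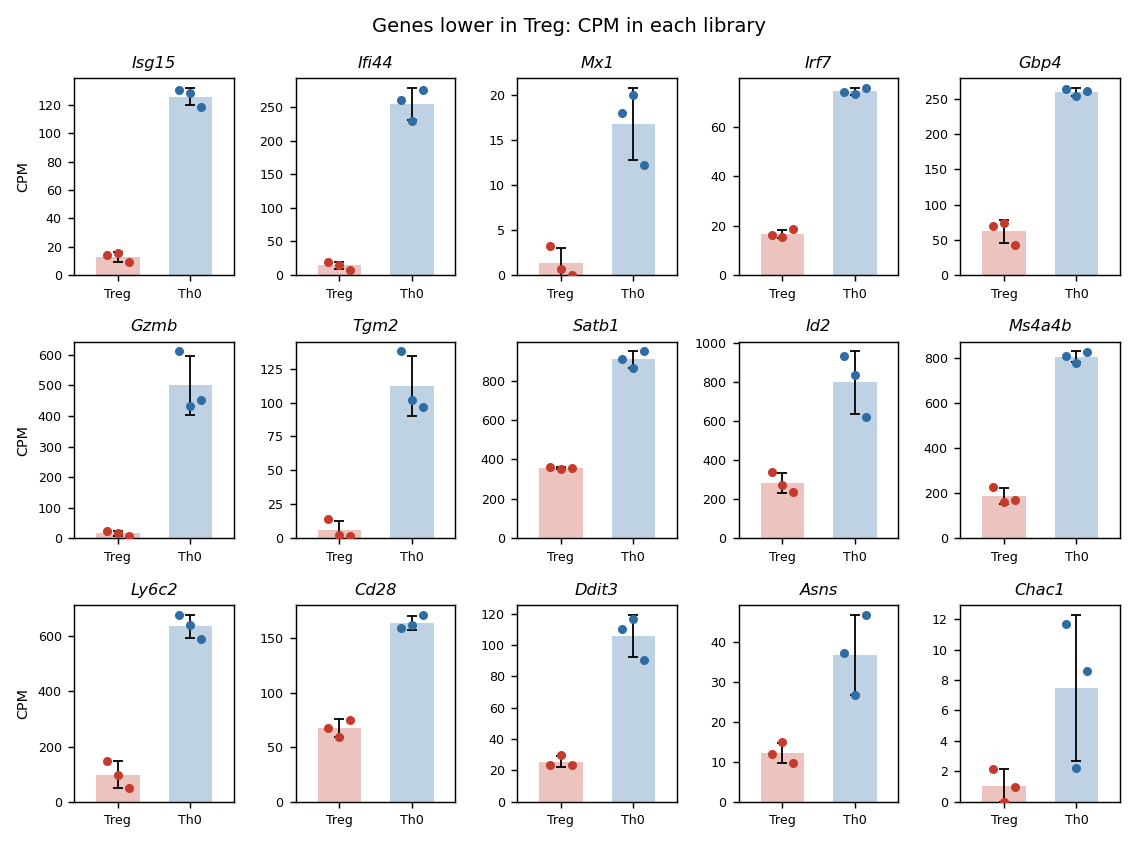
Levels of 15 genes lower in Treg cells, in CPM (y axis, each panel with its own scale from 0). Points are the 3 libraries of Treg (red, left) and Th0 (blue, right), bars are means and error bars are SD. The groups do not overlap in any panel, and in Chac1 the second Th0 library comes within about a read of the highest Treg library.

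Genes that cells switch on when amino acids are short were also lower. Uncharged transfer RNA activates the kinase GCN2, ATF4 is then translated, and ATF4 with C/EBP factors binds the amino acid response element of transporters, synthetases and stress genes. Of 43 tested members of amino acid transport, one-carbon metabolism and the stress response 18 fell and 1 rose (median -0.52). Without the intensity trend 4 members fell. Their summed level, over the 18, was 1940 to 1990 CPM in Treg, 3067 to 3214 CPM in Th0 and 1323 to 1426 CPM in naive libraries. The promoters of Asns, at chr6:7693160-7693459 on the minus strand, and of Chac1, at chr2:119350992-119351291 on the plus strand, show the letters of this element (TGATGNAA on either strand, in capitals; same window and build).
Asns: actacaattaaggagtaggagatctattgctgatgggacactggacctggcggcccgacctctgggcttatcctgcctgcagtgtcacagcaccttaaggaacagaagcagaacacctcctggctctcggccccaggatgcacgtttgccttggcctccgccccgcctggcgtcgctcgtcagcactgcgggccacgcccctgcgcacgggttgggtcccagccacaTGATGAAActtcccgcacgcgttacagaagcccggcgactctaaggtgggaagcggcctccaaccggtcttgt
Chac1: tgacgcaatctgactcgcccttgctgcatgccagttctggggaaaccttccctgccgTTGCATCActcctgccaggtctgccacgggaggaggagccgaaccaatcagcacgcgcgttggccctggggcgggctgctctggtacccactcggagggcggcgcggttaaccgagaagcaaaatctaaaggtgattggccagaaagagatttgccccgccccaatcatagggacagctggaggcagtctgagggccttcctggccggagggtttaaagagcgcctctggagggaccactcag
Of the 18 members that fell 15 had a promoter and 6 of them held these letters, against 35.1% of the 37 members tested that had one, 2.79% of all genes tested with a promoter and 4.51% of all promoters.

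Ddit3 (CHOP), a transcription factor of the stress response, had 23.7, 29.6 and 23.5 CPM in Treg and 110.2, 116 and 90.6 CPM in Th0 libraries (log2 change -2.004, SE 0.17, adjusted p = 1.38e-08). Atf4 had 244, 259 and 237 CPM in Treg and 351, 434 and 392.0 CPM in Th0 libraries (log2 change -0.66, SE 0.11, adjusted p = 0.00016). Trib3, a pseudokinase that damps the pathway, had 25.8, 27.1 and 13.7 CPM in Treg and 55.1, 64.4 and 52.7 CPM in Th0 libraries (log2 change -1.38, SE 0.29, adjusted p = 0.00334). None of these overlapped. Slc3a2, the heavy chain of the leucine transporter CD98, had 188, 189.5 and 181 CPM in Treg and 284, 312 and 325 CPM in Th0 libraries (log2 change -0.71, SE 0.11, adjusted p = 6.41e-05). The mitochondrial folate enzyme Mthfd2 had 226, 209.5 and 212 CPM in Treg and 303, 352 and 348 CPM in Th0 libraries (log2 change -0.63, SE 0.11, adjusted p = 0.000409). Of the 7 transfer RNA synthetases among the calls, Mars had 34.5, 43.8 and 38.2 CPM in Treg and 91.1, 65.5 and 64.9 CPM in Th0 libraries. Asns, asparagine synthetase, had a log2 change of -1.50 and its call was lost without any 1 of the 6 libraries (adjusted p up to 0.189). Chac1, which degrades glutathione, had 2.15, 0 and 0.98 CPM in Treg and 11.7, 2.22 and 8.57 CPM in Th0 libraries (ratio of Th0 over Treg reads 8.77, interval 2.60 to 46.1) and lost its call without Th0 replicate 1 or 3 or Treg replicate 2 or 3 (up to 0.234). Mars lost its call without Th0 replicate 1 or Treg replicate 1 or 3 (up to 0.124), and Cebpb (-1.46) without any Th0 replicate or Treg replicate 2 or 3 (up to 0.218). Sesn3, a sestrin that restrains growth signalling, was the member that rose (log2 change 0.53, SE 0.12, adjusted p = 0.00657). Slc7a5 (-0.84), a further member, lost its call without Th0 replicate 3 or Treg replicate 3 (adjusted p up to 0.0812). Psat1 (-0.67) lost it without Th0 replicate 1 or Treg replicate 3 (up to 0.061), and Shmt2 (-0.61) without Treg replicate 2 (0.0582). Sars (-0.50) kept its call without each library in turn. Atf4, Slc3a2, Mthfd2, Sesn3, Slc7a5, Psat1, Shmt2 and Sars were named after their values were seen. The unfolded protein response and chaperones, a neighbouring programme, had 1 of 29 higher and 2 lower.

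Receptors and signalling proteins of antigen recognition were more often lower than higher where they passed. Of 29 checkpoint and costimulatory receptors 8 fell and 2 rose (median -0.42). Without the trend 5 fell. Cd28, the main costimulatory receptor, had 67.8, 59.3 and 75.4 CPM in Treg and 159, 162 and 172 CPM in Th0 libraries (log2 change -1.27, SE 0.11, adjusted p = 2.22e-08). The inducible costimulator Icos had 75.4, 71.5 and 63.7 CPM in Treg and 192, 169.8 and 136 CPM in Th0 libraries (log2 change -1.22, SE 0.16, adjusted p = 9.01e-06, named after its values were seen). The SLAM family members Slamf6, Ly9 and Cd84 had log2 changes of -1.52, -1.42 and -1.23. Slamf7 (-1.90) lost its call without Th0 replicate 1 or 2 or Treg replicate 2 or 3 (adjusted p up to 0.155). Cd96, a receptor that binds nectins, was one of the 2 risers, with 79.7, 72.8 and 74.4 CPM in Treg and 11.7, 19.97 and 13.5 CPM in Th0 libraries (log2 change 2.29, SE 0.21, adjusted p = 2.69e-08). Cd101 was the other (2.38). Of 39 genes of the T cell receptor complex and its signalling 10 fell and 3 rose (median 0.02). Without the trend 3 fell. Themis, which tunes the receptor signal, had 172, 199.8 and 152 CPM in Treg and 305, 372 and 296 CPM in Th0 libraries (log2 change -0.89, SE 0.12, adjusted p = 1.19e-05). The phosphatase Ptpn22 and the exchange factor Rasgrp1 had log2 changes of -1.005 and -0.71, the call of Rasgrp1 ending without the trend (adjusted p = 0.0589). The phosphatase Ubash3b, which dampens the receptor signal, rose, with 73.2, 112 and 105 CPM in Treg and 33.9, 22.2 and 18.4 CPM in Th0 libraries (log2 change 1.94, SE 0.21, adjusted p = 4.49e-07).

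Genes that respond to such signals were higher where they passed: 9 of 33 in the list of Egr, Nr4a and antigen-signal genes rose and 0 fell (median 0.37), of which DESeq2 called 3 members higher. The count was 2 without the trend, 3 without Treg replicate 2, and 5 without Treg replicate 1 or 3. Dusp2, a nuclear phosphatase of MAP kinases, had 113, 102 and 87.2 CPM in Treg and 38.1, 46.6 and 36.8 CPM in Th0 libraries (log2 change 1.29, SE 0.13, adjusted p = 2.21e-07). Ier5 rose by 0.67. Tnfaip3 (A20), an inhibitor of NF-kappaB, was called although its groups overlapped, and lost its call without Th0 replicate 1 or 3 or Treg replicate 1 or 2 (adjusted p up to 0.21). The AP-1 gene Jun had 143, 152 and 142 CPM in Treg and 54.03, 54.4 and 50.2 CPM in Th0 libraries (log2 change 1.45, SE 0.11, adjusted p = 2.83e-09). Jund had 438, 494 and 412 CPM in Treg and 175, 175 and 179 CPM in Th0 libraries (log2 change 1.34, SE 0.10, adjusted p = 1.22e-09). Of 22 AP-1 and ATF factors 5 rose and 2 fell. DESeq2 called 3 of them higher. The fallers were Batf3 (ratio of Th0 over Treg reads 21.1, interval 3.27 to 883), whose call ended when Th0 replicate 1 was left out (adjusted p = 0.064), and Fosl2 (-1.43), lost without Treg replicate 3 (adjusted p = 0.0526). The naive level was above both cultures in 4 of the 5 AP-1 and 7 of the 9 antigen-signal genes that rose (Jun 842 CPM, Dusp2 365 CPM).

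Regulators of G protein signals and of calcium rose more often than they fell, with 8 of 40 against 1 in one list and 6 of 42 against 3 in the other. DESeq2 called 5 higher in the first list, and without the trend 3 were higher in the second. Rgs1, which shortens chemokine signals, had 262, 270.1 and 284 CPM in Treg and 81.6, 72.1 and 37.97 CPM in Th0 libraries (log2 change 2.14, SE 0.19, adjusted p = 1.52e-08). Atp2b4, a calcium pump of the plasma membrane, had 200.3, 187 and 181 CPM in Treg and 50.9, 49.9 and 34.3 CPM in Th0 libraries (log2 change 2.07, SE 0.19, adjusted p = 3.86e-08). Pde3b, a phosphodiesterase that degrades cyclic AMP, fell, with 36.6, 29 and 28.4 CPM in Treg and 114, 132 and 159 CPM in Th0 libraries (log2 change -2.07, SE 0.17, adjusted p = 8.47e-09). Among genes of the retinoid, vitamin D, aryl hydrocarbon and steroid receptor list 6 of 19 rose and 1 fell. With DESeq2 or without Treg replicate 3, 3 rose. Ahr, the aryl hydrocarbon receptor, had 9.69, 10.3 and 10.8 CPM in Treg and 2.12, 1.11 and 0 CPM in Th0 libraries (ratio of summed reads 9.12, 95% interval 2.88 to 46.3; adjusted p = 0.00201). Its repressor and target Ahrr had 7.54, 9.02 and 11.8 CPM in Treg and 0, 0 and 2.45 CPM in Th0 libraries (ratio 12.5, 95% interval 3.21 to 108; adjusted p = 0.00249), and its call ended with DESeq2 (adjusted p = 0.0632) and at a pseudocount of 0.1 CPM (0.0661). Rdh10, which makes the precursor of retinoic acid, rose by 1.70 and lost its call without Th0 replicate 3 or Treg replicate 3 (adjusted p up to 0.0631). Among Wnt and Notch genes 3 of 28 rose (1 without the trend or without Treg replicate 2), led by the Notch target Nrarp, with 59.2, 58.6 and 80.3 CPM in Treg and 6.36, 13.3 and 6.12 CPM in Th0 libraries (log2 change 2.87, SE 0.45, adjusted p = 9.45e-05).

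Among called genes, the largest rises in mean CPM were those of Actb, Tmsb4x and Vim, genes of the cytoskeleton. Vim, the intermediate filament vimentin, had 3837, 3759 and 3308 CPM in Treg and 2205, 2251 and 2177 CPM in Th0 libraries (log2 change 0.71, SE 0.08, adjusted p = 4.7e-07). Tmsb4x, which binds actin monomers, had 5274, 5247 and 7021 CPM in Treg and 4403, 4183 and 3584 CPM in Th0 libraries (log2 change 0.52, SE 0.11, adjusted p = 0.00263). That call ended without the trend (adjusted p = 0.223) and with quantile scaling (0.0608). Actb, beta-actin, rose by 0.29, a call lost without Th0 replicate 1 or 3 or Treg replicate 1 or 2 (adjusted p up to 0.123). The Actb call also ended with quantile scaling (log2 change 0.15, adjusted p = 0.644). It ended without the trend (0.35) and at a pseudocount of 0.1 CPM (0.0559) too. Of 59 genes of actin and small GTPases 10 rose and 3 fell (median -0.01). Without the trend 5 rose. Other large differences in level were those of Prnp, the prion protein (490.0 ± 85.6 CPM in Treg against 61.9 ± 11.98 CPM in Th0; SD, n = 3 each), of Igfbp4, which binds insulin-like growth factors (1176 ± 25.9 against 584 ± 155 CPM), of Akap13, a scaffold of protein kinase A (1067 ± 53.9 against 542 ± 9.79 CPM), and of the small nucleolar RNA Snord89 (608 ± 98.7 against 195 ± 39.6 CPM). Among abundant genes that fell were Ncl, nucleolin (2290 ± 55.7 CPM in Treg against 2812 ± 69.05 CPM in Th0), Cdk6, a kinase of the G1 phase (712 ± 67.01 against 1236 ± 67.5 CPM), and Sub1, a coactivator of transcription (1446 ± 11.03 against 1930 ± 177 CPM). Without the trend the calls of Cdk6 (adjusted p = 0.0533) and Sub1 (0.244) ended. Ncl lost its call without Th0 replicate 2 or Treg replicate 2 (adjusted p up to 0.0715).

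Fatty acid synthesis, uptake and storage, the proteasome, DNA replication and mitosis held no genes that limma called. Of 23 genes of fatty acid synthesis, 27 of fatty acid uptake and storage, 39 of the proteasome, 43 of DNA replication and 41 of mitosis, limma called 0 in either direction. Over all genes 3.45% were called higher and 2.92% lower. At an unadjusted p under 0.05, which 16.8% of all genes reached, these lists had 1 higher and 2 lower, 1 higher and 4 lower, 0 higher and 5 lower, 2 higher and 1 lower, and 0 higher and 1 lower, in that order. With edgeR the counts were 1 higher and 0 lower, 0 higher and 2 lower, 0 higher and 1 lower, 1 higher and 0 lower, and 0 higher and 1 lower, and DESeq2 called 1 gene of fatty acid synthesis and none in the other four lists. Fasn, fatty acid synthase, had 396, 441 and 382 CPM in Treg and 387, 452 and 432 CPM in Th0 libraries, and Scd2, a desaturase, had 1117, 1064 and 955 CPM in Treg and 1080, 1116 and 998 CPM in Th0 libraries, both with overlap. Among 15 acyl-CoA synthetases, which activate fatty acids, Acsbg1 and Acsl6 rose and 0 fell. Acsbg1 had 49.5, 58.01 and 51.9 CPM in Treg and 10.6, 16.6 and 8.57 CPM in Th0 libraries (log2 change 2.11, SE 0.31, adjusted p = 4.76e-05). Acsl6 had 23.7, 56.7 and 62.7 CPM in Treg and 8.48, 11.1 and 9.80 CPM in Th0 libraries (log2 change 2.06, SE 0.44, adjusted p = 0.00365), with Treg replicate 1 well under the other two. Leaving out Treg replicate 2 (adjusted p = 0.0518) or Treg replicate 3 (0.0526) ended its call, as did a pseudocount of 0.1 CPM (0.0755). Cerk, which phosphorylates ceramide, rose among 32 sphingolipid genes, with 50.6, 46.4 and 50.9 CPM in Treg and 15.9, 9.99 and 13.5 CPM in Th0 libraries (log2 change 1.85, SE 0.26, adjusted p = 2.67e-05). Of 38 glycolysis genes 4 fell and 0 rose, led by the glucose transporter Slc2a3 with 125, 136 and 73.5 CPM in Treg and 276, 294 and 169 CPM in Th0 libraries (log2 change -1.14, SE 0.20, adjusted p = 0.000311). Without the trend none of the 4 was called (Slc2a3 adjusted p = 0.0761), 2 were called at a pseudocount of 0.1 CPM or without Treg replicate 1, and 1 was called without Th0 replicate 1 or 2 or Treg replicate 3. edgeR called 8 lower. Hif1a, which drives glycolysis in low oxygen, was lower too (log2 change -0.84), 1 of the 2 among 25 hypoxia genes that fell. Of 80 ribosomal protein genes 2 fell, and of 74 nuclear subunits of oxidative phosphorylation 1 rose and 2 fell, shares near or under those of all genes.

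**Figure D4:**
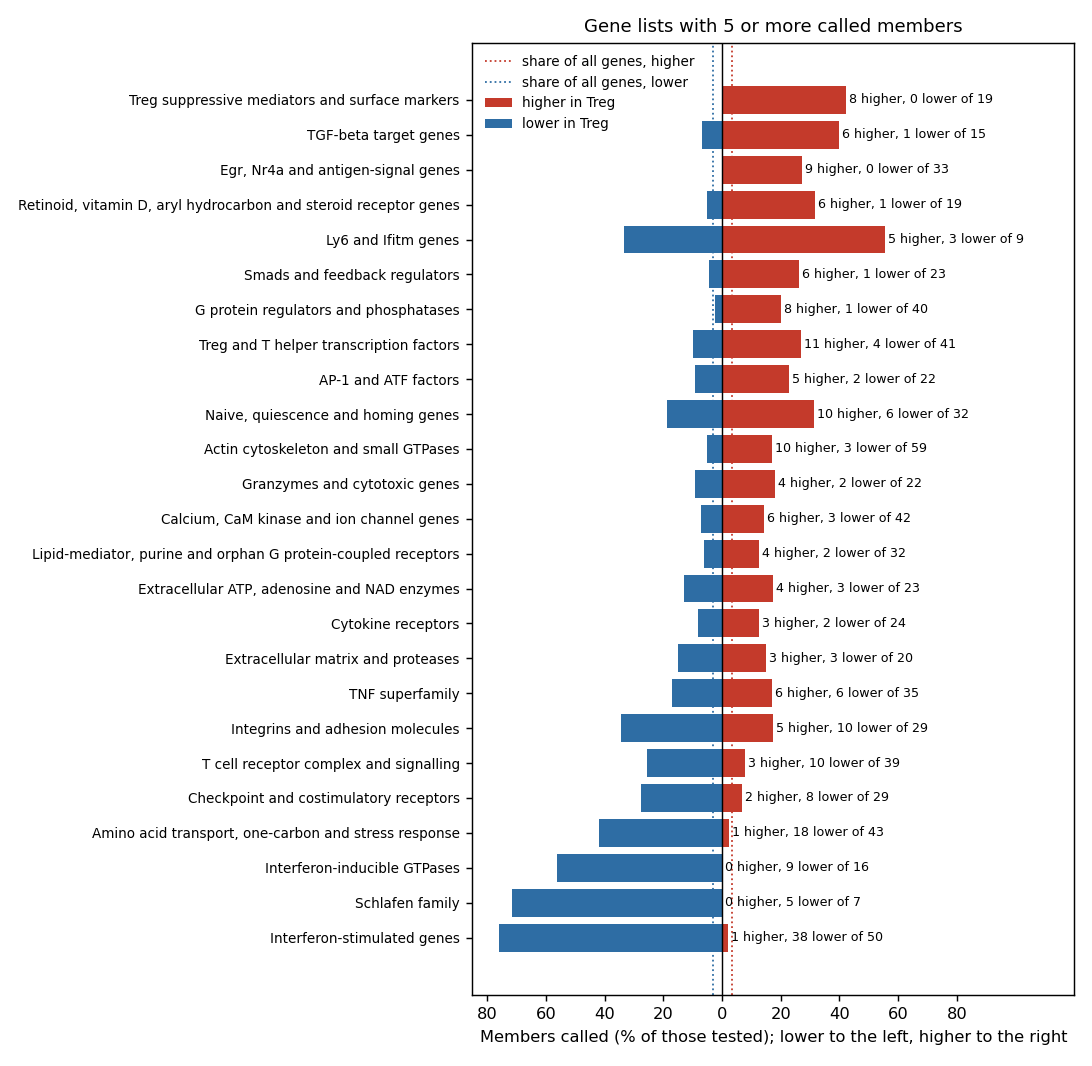
Share of tested members called in each gene list with 5 or more calls (x axis, %; red to the right, higher in Treg; blue to the left, lower in Treg), with the counts beside each bar. Dotted lines mark the shares of all 13003 genes, 3.45% higher and 2.92% lower.

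Neighbouring called genes formed 13 runs, in which a shared direction was part of the definition and no expected number was worked out. These were runs of at least 3 called genes in 1 direction, next to each other among the 11567 tested genes with a position and with starts within 200 kb, and they held 45 genes. Of the runs 9 were lower in Treg. The run with the most genes held Abcg3, Gbp8, Gbp9, Gbp4, Gbp10 and Gbp11 on chromosome 5 (104935057 to 105346476), with log2 changes of -4.47 to -1.80. Further lower runs were Ifi206, Ifi214, Ifi209 and Ifi208 on chromosome 1 (173468485 to 173698393), Ifit2, Ifit3, Ifit1bl1 and Ifit3b on chromosome 19 (34550550 to 34662981), and Ly6a, Ly6c1 and Ly6c2 on chromosome 15 (74994877 to 75112066). The other lower runs were Rnf144a, Rsad2 and Cmpk2 on chromosome 12, Trim12c, Trim30c and Trim30a on chromosome 7, Ms4a4c, Gm5511 and Ms4a4b on chromosome 19, the SLAM genes Cd84 and Slamf6 with Gm37065 on chromosome 1, and Gm14718, Cd40lg and Arhgef6 on chromosome X. The 4 higher runs included Ifitm2, Ifitm1, Ifitm3 and B4galnt4 on chromosome 7 (140954837 to 141072400; 0.89 to 3.76) and Apol9b, Apol8 and Myh9 on chromosome 15 (77729047 to 77842175; 0.52 to 3.69). Another higher run was Mapkapk3, Cish and Hemk1 on chromosome 9. Without the trend the calls of Arhgef6 (adjusted p = 0.0922), Mapkapk3 (0.0922) and Myh9 (0.0789) also ended. Several runs are families of paralogs, and reads can be split within a family. Of the 45 genes 15 lost their call without 1 library or more, in 12 of the 13 runs. Among them were Gbp10, lost without Th0 replicate 2 or Treg replicate 2 (adjusted p up to 0.0838), Ifi214, without Th0 replicate 2 (0.0878), Ifit2, without Th0 replicate 3 or Treg replicate 2 (up to 0.0648), Ifit3b, without any library but Th0 replicate 1 (up to 0.181), B4galnt4, likewise (up to 0.161), Apol8, without any but Treg replicate 2 (up to 0.14), and Ly6a and Ly6c1 as given above. Trim30c was lost without any library but Th0 replicate 1 (up to 0.228), Cish without any 1 of the 6 (0.163), Gm14718 without any but Th0 replicate 2 (0.173), Gm37065 without Th0 replicate 2 or 3 or Treg replicate 1 or 2 (0.159) and Rnf144a without Th0 replicate 1 or Treg replicate 2 (0.0832).

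The 3 Treg libraries did not differ from Th0 to the same extent in every list. The median distance of the 449 higher genes from the Th0 mean was 1.08, 1.10 and 1.13 on the log2 scale in Treg replicates 1, 2 and 3, and that of the 379 lower genes -0.92, -0.89 and -0.96. Of the 38 interferon-stimulated genes that fell, the distances were -1.53, -1.62 and -1.84. Over all 449 higher genes, the Treg library with the lowest value was replicate 1 in 204, replicate 2 in 98 and replicate 3 in 147. Replicate 1 was the lowest in 6 of the 6 retinoid, vitamin D, aryl hydrocarbon and steroid receptor genes that rose. It was also the lowest in 5 of the 8 suppressive mediators and surface markers that rose. Of 449 higher genes, naive cells lay below both cultures in 126, between them in 164 and above both in 159, and of 379 lower genes in 135, 119 and 125. The summed markers of other cells were at most 117 CPM for B cells, 5.30 CPM for myeloid cells and 15.5 CPM for red cells and platelets in the 6 cultured libraries. In naive libraries these sums were 378 to 725, 49.1 to 123 and 522 to 1199 CPM, in the same order. The part of such cells in the naive levels was not tested. Over all called genes, the naive level was nearer to that of Treg than of Th0 in 199 of the 379 lower genes (52.5%). Among the 449 higher genes it was nearer in 225 (50.1%). Of the genes that fell, it was nearer to Treg in 15 of the 18 amino acid and stress genes (83.3%). The share was 60.5% in the interferon-stimulated genes that fell (23 of 38), not far from that of all lower genes. Of the 5 Ly6 and Ifitm genes that rose, it was nearer to Treg in 0.

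The called genes were then followed in a separate set of Treg cultures with guides against Smad2 and Smad3, in which values are CPM rounded to whole numbers. The libraries labelled sgSmad2/3 had 13 and 18 of Smad2, against 37 and 29 in control libraries, but 41 and 37 of Smad3, against 30 and 34 in control libraries. The tags lie at the 3' end of a transcript and need not show a cut elsewhere in the gene, so these values check the labels only in part. No gene of 18347 passed the adjusted test between sgSmad2/3 and control (0% in either direction), where 918 were lower (5.00%) and 877 higher (4.78%) at an unadjusted p under 0.05. Without the intensity trend in limma, 103 genes were lower (0.561%) and 61 higher (0.333%). With genes under a value of 5 left out, 26 of the genes that TGF-beta raised were lower and 17 of those that it lowered were higher by the adjusted test. The 447 measured genes that TGF-beta raised had a median change of -0.40 in libraries labelled sgSmad2/3, and 377 of them (84.3%) lay below 0, against 0 and 45.6% over all genes. At an unadjusted p under 0.05, 156 of them (34.9%) were lower and 3 higher. The 375 measured genes that TGF-beta lowered had a median of 0.29, with 23.2% below 0, and 86 of them (22.9%) were higher at an unadjusted p under 0.05 and 3 lower. The single guides gave smaller medians, -0.05 for sgSmad2 and -0.18 for sgSmad3 over the higher genes, and 0.09 and 0.13 over the lower ones. These medians are descriptions of libraries of 2 a group.

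**Figure D5:**
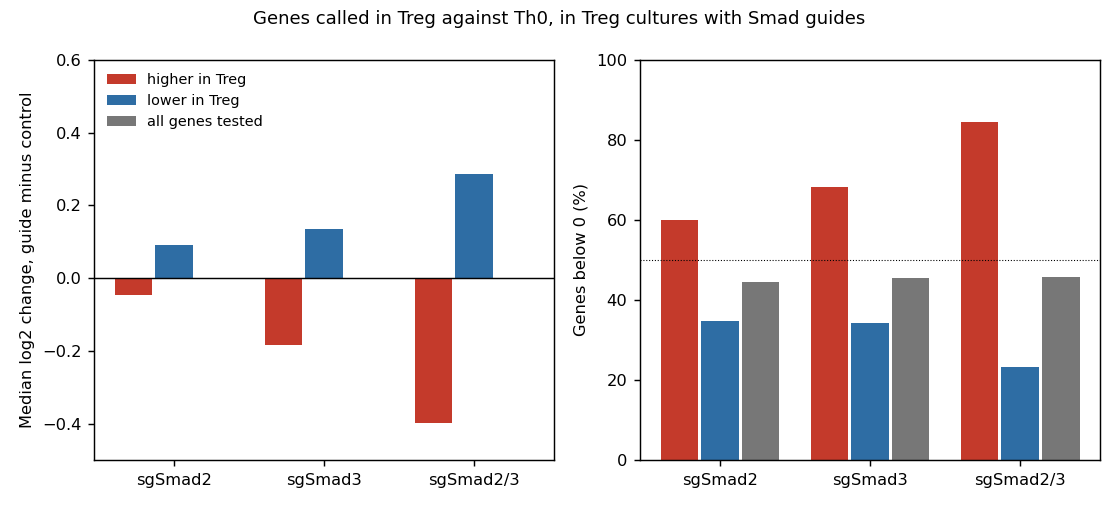
Median log2 change (left) and share of genes below 0 (right, %) in Treg cultures with guides against Smad2, Smad3 or both, each minus control, for genes higher in Treg than Th0 (red), lower in Treg than Th0 (blue) and all genes tested (gray). The median of all genes is 0 with each guide, and the distance of the red and blue bars from the gray ones is greatest for sgSmad2/3.

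The lists differed in how far they moved with the guides. Of the 10 adhesion genes that TGF-beta lowered, all 10 were above 0 with sgSmad2/3 (median 0.62), and Itgb3 had 88 and 106 in sgSmad2/3 libraries, against 14 and 15 in control libraries (log2 change 2.65). Gzmb had 95 and 76 in sgSmad2/3 libraries, against 14 and 10 in control libraries (2.74). Id2 had 619 and 548 in sgSmad2/3 libraries, against 185 and 204 in control libraries (1.58). All 6 feedback regulators that rose with TGF-beta were below 0 (median -0.62). So were 8 of the 8 suppressive mediators and surface markers of Treg cells that rose (median -0.50). The 38 interferon-stimulated genes that fell had a median of 0.17, with 12 below 0, and the 18 amino acid and stress genes a median of 0.09, with 8 below 0. Cd38 changed by -1.87, Cd40 by -1.56, Cdh1 by -1.60, Igha by -1.41 and Trgv2 by -1.21, each opposite in sign to its change with TGF-beta. Foxp3 changed by -0.31, with 189 and 195 in sgSmad2/3 libraries, against 177 and 320 in control libraries, and was not among the genes past an unadjusted p of 0.05.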

How the data were processed

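Gene levels came from the table of naive, Th0 and Treg libraries, and a second table held the Smad guide libraries. The first is named TPM, but the deposited values have the same total in every library and step by whole reads in 100% of values (tolerance 0.01 reads), so they are CPM without correction for gene length. The fixed design had allowed for either measure, and the test is the same. The Smad table holds CPM that the authors rounded to whole numbers, used as a score. STAR 2.7.9a, Subread 2.0.1 and mm10 are named per the submitters' processing notes. Libraries are QuantSeq 3' tags per the labels, so levels are comparable between samples and not per length between genes, and whether counting used strand is not given in the sources used here, so antisense overlaps are uncertain.

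limma 3.58.1 with an intensity trend (R 4.3.3) was fitted to log2(CPM + 1) of 9 libraries (Treg, Th0 and naive) for Treg minus Th0, and to 8 Smad libraries for genes at 1 or more in at least 2. Adjustment followed Benjamini and Hochberg over every gene of a table. edgeR 4.0.16 and DESeq2 1.42.0 on the counts of reads recovered from the deposited CPM were alternatives. The fit was tested on simulated data. Libraries had 797612 to 1551478 reads, and 1294583 to 1602297 in the Smad table. Correlations of log2 values were 0.955 to 0.965 among Treg, 0.953 to 0.955 among Th0, and 0.930 to 0.940 between Treg and Th0 libraries.

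Members, gene lists and tests were chosen with earlier results of these data known, and no list gives independent support. Genes named were the 15 largest rises and falls without overlap and with a mean of at least 10 CPM, the 10 with the largest differences of level each way, up to 6 called members of each list, Acsbg1, Acsl6 and Foxp3, and runs of neighbours. Others are said to be chosen after their values were seen, and pathway members that did not pass were added in the same way. Symbols and coordinates are from RefSeq, GRCm38.p6. Intervals of ratios are exact binomial intervals at 95% and cover counting error only. The 4 libraries of an Acsbg1 experiment and 8 ATAC-seq libraries were not analysed here. Some genes, and 1 run of neighbours, are not reported here by name.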

Additional observations from a re-analysis of the deposited data

How the results depend on the processing

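The counts of 449 higher and 379 lower genes lay at 327 to 610 and 281 to 511 under the other alternatives, within 1.5 times, except without the intensity trend (279 higher and 227 lower). Without 1 library they were 292 to 378 higher and 253 to 292 lower, past 1.5 times only for the 292 higher without Treg replicate 2. DESeq2 shared 599 of its 608 calls with limma and edgeR 811 of its 1121. Foxp3 and Acsbg1 kept their calls throughout (3.87 to 4.19 and 1.92 to 2.36 without 1 library). Acsl6 ranged over 1.81 to 2.50 without 1 library and lost its call at a pseudocount of 0.1 (2.16, adjusted p = 0.0755). Correlations of deviations between Treg and Th0 libraries of the same replicate number were weak, at 0.02, 0.01 and 0.05. Those of different numbers were lower still, at -0.03 to 0.009, and the value for Smad libraries was 0.02. Values this small cannot tell whether the replicate numbers pair the samples. With the replicate block 458 genes were higher and 385 lower. In the Smad libraries the genes called opposite to TGF-beta were 26 (lower) and 17 (higher) with a filter at 5, 4 and 8 without the trend, and 0 in each direction as reported and with the block, quantile scaling, a pseudocount of 5 and without 1 library, where the lone sample is assumed to vary like the others. Of the named genes 90 of 253 lost their call without at least 1 library and 115 under at least 1 other alternative, none changed direction under any alternative run, and the causes were not tested. The depths of 797612 to 1551478 reads limit calls of genes under 5 CPM to large changes. Of genes added after their values were seen, Ifi27, Sesn3, Itgb7, Itga6, Atf4, Mthfd2, Slc7a5, Psat1, Shmt2, Sars, Thy1, Tcf7, Klf3 and Smad3 lost their call without the trend. Itgb7 and Smad3 lost it with DESeq2 and Itgb7 at a pseudocount of 0.1.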

Other observations

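Genes of quiescence and homing split. Of 32 tested members 10 rose and 6 fell. Without the intensity trend 3 rose. Klf2, a factor that keeps T cells quiescent and drives homing receptors, had 393, 532 and 565 CPM in Treg and 144, 221 and 222 CPM in Th0 libraries (log2 change 1.35, SE 0.14, adjusted p = 2.78e-07), and its relative Klf3 377, 460.2 and 454 CPM in Treg and 273, 235 and 290.3 CPM in Th0 libraries (log2 change 0.69, SE 0.10, adjusted p = 4.05e-05). Dapl1 had 47.4, 70.9 and 87.2 CPM in Treg and 209, 229.7 and 269.5 CPM in Th0 libraries (log2 change -1.80, SE 0.17, adjusted p = 4.72e-08). These 3 genes did not overlap between groups, and the naive means were 907, 750.2 and 353 CPM, above both cultures. Klf3 was chosen after its values were seen. Of 11 genes of the Myc, Max and Mxd network 2 rose, both Mxd antagonists of Myc: Mxd4 had 66.8, 78.6 and 93.1 CPM in Treg and 32.8, 34.4 and 31.9 CPM in Th0 libraries (log2 change 1.23, SE 0.14, adjusted p = 1.57e-06).

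Enzymes of extracellular nucleotides and NAD had 4 of 23 members higher and 3 lower. Without the trend, Th0 replicate 3 or Treg replicate 1 or 2, 2 were higher. With DESeq2, or without Th0 replicate 1 or 2 or Treg replicate 2 or 3, 1 was lower. Dpp4 (CD26), a surface peptidase that also binds adenosine deaminase, had 14, 13.5 and 10.8 CPM in Treg and 74.2, 63.2 and 73.5 CPM in Th0 libraries (log2 change -2.38, SE 0.21, adjusted p = 2.22e-08). The chemokine Ccl5 had 3.23, 1.29 and 2.94 CPM in Treg and 28.6, 23.3 and 15.9 CPM in Th0 libraries (log2 change -2.77, SE 0.33, adjusted p = 2.1e-06), and was at 64.9 CPM in naive cells. The DNA demethylase Tet1 had 3.23, 6.45 and 3.92 CPM in Treg and 20.1, 19.97 and 15.9 CPM in Th0 libraries (log2 change -1.87, SE 0.33, adjusted p = 0.000398). All 3 kept the groups apart. Of 8 Gimap GTPases of lymphocyte survival 3 fell, led by Gimap7 with 88.3, 77.3 and 57.8 CPM in Treg and 201, 149.8 and 127 CPM in Th0 libraries (log2 change -1.08, SE 0.16, adjusted p = 6.14e-05). Nlrc3, which restrains T cell activation, had 163, 169.5 and 149 CPM in Treg and 74.2, 76.6 and 64.9 CPM in Th0 libraries (log2 change 1.15, SE 0.14, adjusted p = 1.95e-06).

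The letters of the palindrome bound by Smad3 and Smad4 (GTCTAGAC, the same on both strands) were held by 0 of 12 promoters of the Smad and feedback list and 0 of 9 of the TGF-beta target list. They were in 3 of 336 promoters of the genes that rose (0.893%) and in 0.315% of those of all genes tested. No match says only that these letters are not in the window.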
